A study of Mus musculus with 8 samples.

Results

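The MHC class II genes of mouse were followed in spleen B cells, as 10 rows of the deposited table chosen by gene symbol out of 49315 rows. They are H2-Aa, H2-Ab1, H2-Eb1, H2-Eb2, H2-Oa, H2-Ob, H2-DMa, H2-DMb1, H2-DMb2 and Cd74. Each symbol matched 1 row. Levels are TPM, read numbers per length of transcript scaled to the same total in each library. All 10 members passed the filter for testing, which asked that 4 or more of the 8 libraries hold a TPM of 1 or more, as did 10708 rows in all. The members were chosen with results of the same comparison known, so their levels and differences are a description and carry no test of their own.

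RNA was taken from total B cells of the spleen of mice aged 4 months. The 4 control samples have the genotype FcgammaR2BKO/CD23Cre+ and the 4 others FcgammaR2BKO/UMPS BKO, here called UMPS_BKO. By the labels both groups share the knockout of the inhibitory Fc receptor FcγRIIB, a background that develops lupus-like autoimmunity, and the groups differ in Umps, which encodes the enzyme of the last steps of de novo uridine monophosphate synthesis. CD23Cre is active where the CD23 gene is on, in mature B cells. The labels name that allele for the controls. Strain and sex are not used here. Nothing says that each replicate was a separate animal, so any p-value covers the scatter of these samples alone, which may be technical.

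MHC class II molecules are pairs of an α and a β chain that carry peptides from the endosomes to the surface of antigen-presenting cells, where CD4 T cells read them. Cd74, the invariant chain, holds new pairs together and guards their groove until it is cut away. H2-DM then exchanges the remaining fragment for other peptides, and H2-O, made mainly in B cells, restrains H2-DM. B cells keep the whole set switched on through the coactivator CIITA, which acts with the RFX complex and NF-Y at paired promoter elements known as the X box and the Y box, and they shut it off when they become plasma cells.

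RefSeq promoter windows (build GRCm38.p6, 250 bases before to 50 after a transcription start) matched 8 of the 10 members, with 9 windows, and are shown as a description. Whether their letters bear on the profiles of the members across libraries was not tested. The letters AACNNATG, an X box form chosen after these windows were seen, and ATTGG, the core of the Y box, were searched on both strands. The 2 forms do not overlap each other. In 5 members the X form was followed on the coding strand by ATTGG within 40 bases, and these stretches are given 5′ to 3′ with both forms in capitals.
H2-Eb1: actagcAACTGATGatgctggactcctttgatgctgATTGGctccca
H2-Eb2: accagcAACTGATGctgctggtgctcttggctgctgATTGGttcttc
H2-DMb1: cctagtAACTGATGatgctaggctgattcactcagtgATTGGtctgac
H2-DMb2: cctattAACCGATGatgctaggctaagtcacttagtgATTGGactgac
H2-Ob: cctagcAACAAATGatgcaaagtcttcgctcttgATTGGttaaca
The stretches lie on the plus strand at chr17:34305772-34305818, chr17:34325539-34325585, chr17:34153093-34153140, chr17:34145122-34145169 and chr17:34238814-34238858, in the order printed. The starts of the 2 forms are 30 bases apart in H2-Eb1 and H2-Eb2, 31 in H2-DMb1 and H2-DMb2 and 28 in H2-Ob. Of all 32851 windows, 0.265% hold this arrangement on either strand, 8.86% hold the X form and 37.4% hold ATTGG. The stretches of H2-DMb1 and H2-DMb2 share 42 of 48 letters.

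The windows of H2-Aa and H2-Oa hold ATTGG without that X form, and the stretch before it is shown for comparison, with ATTGG in capitals.
H2-Aa: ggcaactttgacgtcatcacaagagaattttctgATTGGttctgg
H2-Oa: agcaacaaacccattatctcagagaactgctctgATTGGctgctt
They lie at chr17:34287861-34287905 on the minus strand and at chr17:34092302-34092346 on the plus strand. H2-DMa has 2 windows, of which 1 holds ATTGG and neither holds the X form, and H2-Ab1 and Cd74 are named without a window. A match is a description of letters and not of factor binding.

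All members except Cd74 lie in 1 cluster on chromosome 17, from H2-Oa (GRCm38 34092340 to 34095234) to H2-Eb2 (34325665 to 34341412), while Cd74 (ENSMUSG00000024610) is on chromosome 18. Every one of the 10 is annotated as protein coding, and the values count reads over exons. H2-Oa shares 232 bases of exon with the antisense gene BC051537 and H2-DMa 313 bases with Brd2 on the opposite strand. No source used here gives the strand setting of the counting, so reads of these overlaps could be assigned to either gene. Annotated transcripts of H2-DMb1 and H2-DMb2 are identical at 94.2% of 1246 aligned bases, with an identical run of 221 bases, so the division of reads between these copies is uncertain. H2-Eb1 and H2-Eb2 are identical at 78.5% of 581 aligned bases.

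The libraries were unequal within and between groups. Read totals, recovered from the spacing of low TPM values, ran from 5.80 to 18.9 for the controls and from 10.6 to 28.5 for UMPS_BKO, in units of 1000000 reads. Ribosomal RNA-like features took 5.42% to 60.3% of TPM in the controls and 37.6% to 60.5% in UMPS_BKO. Umps read 16.1, 35.1, 18.6 and 8.98 TPM across the controls and 5.99, 1.05, 13.6 and 2.16 TPM across UMPS_BKO, in the order of replicates 1 to 4, so UMPS_BKO replicate 3 lay above control replicate 4. Fcgr2b, the gene of FcγRIIB, was still read in every library, at 9.56, 12.6, 16.8 and 8.42 TPM across the controls (240 to 703 recovered reads) and 9.54, 2.18, 2.28 and 2.40 TPM across UMPS_BKO (124 to 1039 reads). Fcer2a, the gene of CD23, ranged from 100.5 to 405.7 TPM over the controls and from 20.4 to 235 TPM over UMPS_BKO. Which exons of Umps and Fcgr2b are deleted is not stated in the labels, so these levels do not test the genotypes. The labelled cell type was present by its markers, since all 16 pan-B cell genes were above 0 in every library. Their summed level was 3627 to 10363 TPM in the controls and 590.5 to 5914 TPM in UMPS_BKO.

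Other cells that could hold class II, or dilute it, were followed by marker lists. The 6 dendritic cell genes summed to 1.502 to 11.8 TPM over the controls and 1.30 to 7.62 TPM over UMPS_BKO. Of these, Xcr1 was listed at 0 in all 4 UMPS_BKO libraries. It was also at 0 in every control except replicate 2 (0.424 TPM, from 11 recovered reads), so its zeros do not set the groups apart. The 8 macrophage and monocyte genes summed to 162 to 525 TPM and 48.7 to 346 TPM, the 6 T cell genes to 29.1 to 75.1 TPM and 5.12 to 45.9 TPM, and the 6 plasma cell genes to 641 to 2852 TPM and 71.0 to 883 TPM, controls first. The 7 germinal centre genes summed to 30.4 to 219.6 TPM and 7.38 to 33.1 TPM, with Mef2b listed at 0 throughout UMPS_BKO. Groups did not overlap for the 4 globin genes, at 114 to 489.6 TPM over the controls against 4108 to 46261 TPM over UMPS_BKO. The 5 hepatocyte genes summed to 0, 34821, 10742 and 1.62 TPM in control replicates 1 to 4 and to 12.1 TPM at most in UMPS_BKO, and the 5 skeletal muscle genes reached 1970.4 TPM among the controls and 81595 TPM in UMPS_BKO replicate 4. The part of these in the results below was not tested, and in bulk samples fewer B cells and less class II RNA per B cell cannot be told apart.

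Class II transcripts were abundant in the controls and in UMPS_BKO replicate 1, and scarce in UMPS_BKO replicates 2, 3 and 4. Summed over the 10 genes, control replicates 1 to 4 held 1.01%, 3.34%, 4.50% and 2.77% of their TPM in class II. UMPS_BKO replicates 1 to 4 held 2.33%, 0.256%, 0.466% and 0.0591%. Replicate 1 of UMPS_BKO lay inside the range of the controls for 10 of 10 members, as it did for 80.3% of all tested genes. Replicates 2, 3 and 4 lay below every control for 9 of 10 members, against 20.1% of tested genes, and H2-DMb1 was the exception. No member had 4 of 4 UMPS_BKO libraries below all controls, which held for 4.81% of tested genes. UMPS_BKO replicate 4, the library rich in muscle transcripts, was the lowest of all 8 for each member. This was not particular to class II, since the same library lay below all controls for all 16 pan-B genes. For neither of these counts was the share over all tested genes worked out, so how unusual they are is not known. Mitochondrially encoded transcripts divided the libraries in the same way, at 9.12%, 8.22%, 5.33% and 8.88% of TPM in control replicates 1 to 4, 8.42% in UMPS_BKO replicate 1 and 19.2%, 18.5% and 17.2% in UMPS_BKO replicates 2, 3 and 4. Control replicates 2 and 3, the libraries with hepatocyte transcripts, held the most class II. They also had the smallest shares of ribosomal RNA-like TPM, at 5.42% and 10.5%, against 60.3% and 35.3% in control replicates 1 and 4. The part of any of these in the class II levels was not tested.

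**Figure D1:**
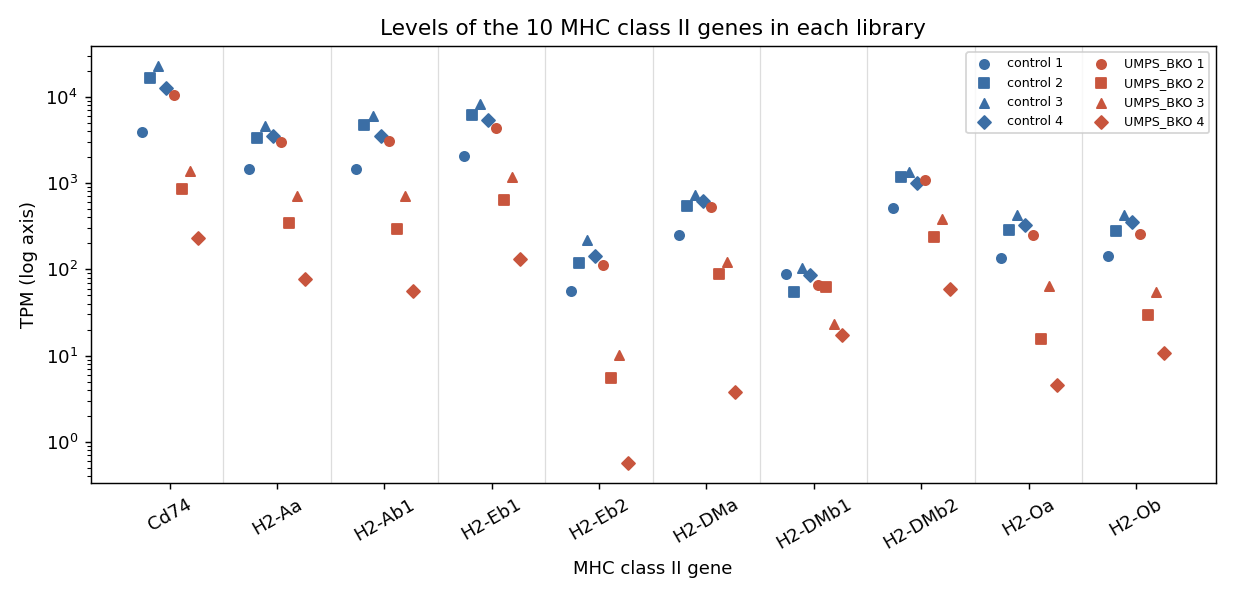
TPM on a log axis (vertical) of each MHC class II gene (horizontal) in every library, controls in blue and UMPS_BKO in red, with 1 marker shape per replicate number. UMPS_BKO replicate 1 sits among the controls for all 10 genes, and UMPS_BKO replicates 2, 3 and 4 sit below them for all but H2-DMb1.

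Cd74, the invariant chain, had the highest level of the family. In replicate order, here and for the genes that follow, it read 3882, 16681, 22888 and 12681 TPM across the controls, against 10511, 850.1, 1397 and 233 TPM across UMPS_BKO. Control replicate 1 was the low control, and the other controls were each above every UMPS_BKO library. The log2 difference, UMPS_BKO minus control on the log2(TPM + 1) scale, was −3.16 ± 1.02. Here and below, ± after a log2 difference is its standard error from limma, with n = 4 in each group. The Cd74 values rested on 82726 to 230781 recovered reads per control library and on 331991, 14049, 31162 and 6175 reads in UMPS_BKO replicates 1 to 4.

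The chains of the classical molecule I-A are H2-Aa (α) and H2-Ab1 (β). H2-Aa read 1448, 3364, 4631 and 3518 TPM across the controls, against 3009.8, 346, 712 and 76.7 TPM across UMPS_BKO. H2-Ab1 read 1469.7, 4691, 5999.9 and 3506 TPM across the controls, against 3075, 296, 718 and 55.7 TPM across UMPS_BKO. In both genes UMPS_BKO replicate 1 was between the lowest and the other controls, and the other UMPS_BKO libraries were below all controls. The log2 difference was −2.61 ± 0.93 for H2-Aa and −2.98 ± 1.01 for H2-Ab1. The TPM of H2-Aa per TPM of H2-Ab1 had a mean of 0.869 ± 0.146 over the controls and 1.13 ± 0.187 over UMPS_BKO (SD, n = 4 each), and the groups overlapped (0.717 to 1.00 and 0.979 to 1.38).

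H2-Eb1 encodes the β chain of the second classical molecule, I-E, which mice of the b haplotype, C57BL/6 among them, cannot assemble because their α chain gene is not transcribed. H2-Eb1 read 2069.7, 6199.6, 8229 and 5452 TPM across the controls, against 4392, 629, 1169.7 and 131 TPM across UMPS_BKO, so it was the second most abundant member in each group. Its log2 difference was −2.60 ± 0.93. Its level per TPM of H2-Aa averaged 1.65 ± 0.193 over the controls and 1.66 ± 0.151 over UMPS_BKO (SD, n = 4 each), the closest group means among the 8 ratios computed between members. The α chain gene, listed as H2-Ea-ps, was at 14.3 TPM in control replicate 4 and 18.9 TPM in UMPS_BKO replicate 3, from 160 and 260 recovered reads, and at 0 in the other 6 libraries. It did not pass the filter, and no difference was fitted.

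H2-Eb2 is a second gene of E β type. It read 56.3, 117, 217 and 142 TPM across the controls, against 112, 5.48, 10.3 and 0.573 TPM across UMPS_BKO, and the last of these rested on 31 recovered reads. The log2 difference of −3.50 ± 1.05 had the greatest size among the 10 members. This rank depended on the scale. With 5 in place of 1 added to TPM, Cd74 came first at −3.15 and H2-Eb2 was at −2.80. After quantile normalization Cd74 was again first at −2.99, and H2-Eb2 was at −2.65. Per TPM of H2-Eb1, H2-Eb2 stood at 0.0189 to 0.0272 in the controls and at 0.0256 in UMPS_BKO replicate 1. In UMPS_BKO replicates 2, 3 and 4 this ratio was 0.00870, 0.00880 and 0.00438, below every control.

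H2-DM, the peptide exchanger, is built from H2-DMa and a β chain encoded by H2-DMb1 or H2-DMb2. H2-DMa read 251, 549, 727 and 623 TPM across the controls, against 522, 87.6, 122 and 3.81 TPM across UMPS_BKO (log2 difference −2.79 ± 1.11). Of the β chains, H2-DMb2 was the main one, at 512, 1170.4, 1341 and 996 TPM across the controls, against 1077, 240.1, 386 and 58.6 TPM across UMPS_BKO (−1.77 ± 0.79). H2-DMb1 read 88.1, 54.3, 104 and 85.5 TPM across the controls, against 65.1, 61.7, 23.2 and 17.4 TPM across UMPS_BKO (−1.15 ± 0.60), and UMPS_BKO replicates 1 and 2 were both above control replicate 2.

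H2-DMb1 thus varied unlike the rest of the family. Control replicate 1, the low control for the other 9 members, was the second highest control for H2-DMb1. Its level per TPM of H2-DMb2 came to 0.172, 0.0464, 0.0772 and 0.0858 across the controls, against 0.0605, 0.257, 0.0601 and 0.297 across UMPS_BKO. The highest ratios were in UMPS_BKO replicates 2 and 4 and control replicate 1, which were not the libraries of 1 group. Since the copies are nearly identical, what part of this ratio is a division of shared reads was not tested.

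H2-Oa and H2-Ob encode the α and β chains of H2-O, the inhibitor of H2-DM. H2-Oa read 135, 287, 429.6 and 326 TPM across the controls, against 247, 15.8, 63.6 and 4.52 TPM across UMPS_BKO (log2 difference −2.96 ± 0.98). H2-Ob read 141, 279, 421 and 352 TPM across the controls, against 257, 29.3, 54.4 and 10.7 TPM across UMPS_BKO (−2.55 ± 0.83). The TPM of H2-Oa per TPM of H2-Ob was 0.983 ± 0.0494 in the controls and ranged from 0.422 to 1.17 in UMPS_BKO.

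The mean of H2-Oa and H2-Ob relative to that of the 3 H2-DM genes, as a difference of means of log2(TPM + 1), came to −0.70, −0.21, −0.13 and −0.15 across the controls, against −0.40, −2.29, −0.81 and −1.11 across UMPS_BKO. The group means differed by −0.85, and by −0.47 without UMPS_BKO replicate 2. With H2-Oa alone set against H2-DMa alone the order was another one. H2-Oa per TPM of H2-DMa was 0.523 to 0.591 in the controls and 0.474, 0.180, 0.521 and 1.19 in UMPS_BKO replicates 1 to 4. By the first measure UMPS_BKO replicate 1 therefore lay among the controls, and replicates 2, 3 and 4 lay below them. By the second, UMPS_BKO libraries lay on both sides of the controls. The first measure gives H2-DMb1 the same weight as the other H2-DM genes.

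In the controls the order of levels was Cd74, H2-Eb1, H2-Ab1, H2-Aa, H2-DMb2, H2-DMa, H2-Ob, H2-Oa, H2-Eb2 and H2-DMb1, on the log2(TPM + 1) scale. Most neighbours kept this order in 4 of 4 control libraries. H2-Ab1 was above H2-Aa in 3 of 4, H2-Ob above H2-Oa in 2 of 4 and H2-Eb2 above H2-DMb1 in 3 of 4, and each of these gaps was smaller than its SD over libraries. In UMPS_BKO the order of the first 2 and of H2-DMb2, H2-DMa and H2-Ob was the same. There H2-Aa stood just above H2-Ab1 (0.16 ± 0.23 log2 units, SD), and H2-DMb1 stood between H2-Ob and H2-Oa with gaps of 0.37 ± 1.45 and 0.08 ± 2.02.

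The make-up of the class II transcripts also differed between libraries, with Cd74 the largest share in each. Cd74 supplied a mean of 46.3% ± 5.59 of the summed class II TPM over the controls and 36.9% ± 6.72 over UMPS_BKO (SD, n = 4 each), with 45.2% in UMPS_BKO replicate 1. H2-Eb1 supplied 19.3% ± 1.06 and 22.7% ± 2.85, and H2-Aa 11.9% ± 2.07 and 13.7% ± 1.10. The share of H2-DMb2 was 2.98% to 5.09% in the controls, 4.63% in UMPS_BKO replicate 1 and 8.29% to 9.90% in UMPS_BKO replicates 2, 3 and 4.

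**Figure D2:**
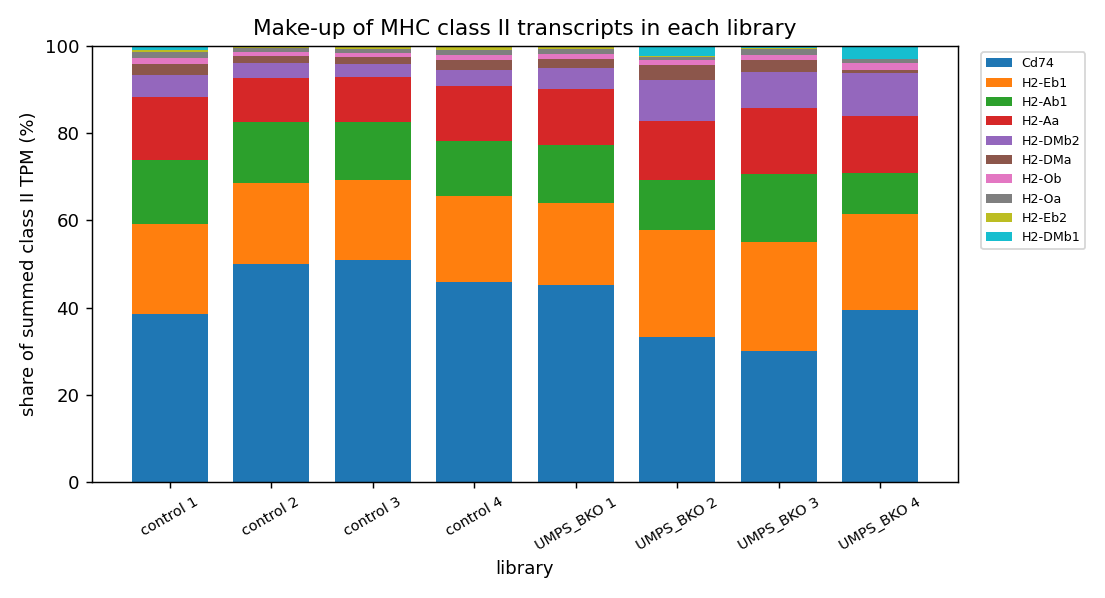
Stacked bars of the share (%) of summed class II TPM that each of the 10 genes took in each library. Cd74 is the largest segment in all 8 libraries, and the H2-DMb2 segment is widest in UMPS_BKO replicates 2, 3 and 4 (8.29% to 9.90%).

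Set against all tested genes, 0 of 10 members were called in limma at a Benjamini-Hochberg adjusted p under 0.05, where 0.131% of the 10708 tested genes were called (0.0934% lower and 0.0374% higher). At an unadjusted p under 0.05, 9 of 10 members were lower, against 16.4% of tested genes. Because the members were chosen with this contrast known, nothing is read from these counts. All 10 differences were below 0, as for 84.3% of tested genes. The median of the 10 log2 differences was −2.70 (range −3.50 to −1.15), beside −0.90 over all tested genes. After scaling by the median of ratios these medians were −1.76 and −0.15, with differences of the members from −2.66 to −0.21, so H2-DMb1 was then close to 0. All 10 members lay below the median tested gene on both scales.

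**Figure D3:**
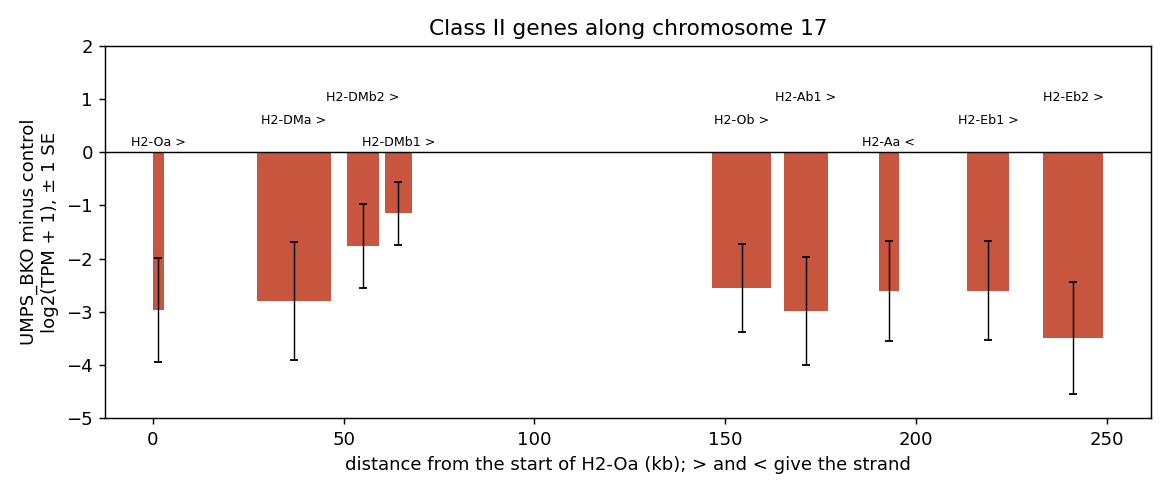
Log2 difference (UMPS_BKO minus control, log2(TPM + 1), vertical; error bars ± 1 SE) of the 9 class II genes on chromosome 17, drawn as bars over each gene's extent by distance in kb from the start of H2-Oa. Bars run from −1.15 for H2-DMb1 to −3.50 for H2-Eb2, and the smallest in size are the neighbours H2-DMb2 and H2-DMb1.

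The differences depended on which UMPS_BKO libraries were kept. Without UMPS_BKO replicate 1 the median of the members was −3.61, and 7 of 10 were called lower in limma (smallest adjusted p = 0.0173, H2-Eb2), where 2.16% of tested genes were called lower. The 3 not called were the H2-DM genes. With array weights, which give libraries unequal weight in the fit, 8 were called lower, all but H2-DMb1 and H2-DMb2, against 17.8% of tested genes. Without UMPS_BKO replicate 4 the median was −1.80 with 0 called. Without control replicates 2 and 3 and UMPS_BKO replicate 4, the libraries with hepatocyte or abundant muscle transcripts, it was −1.35 (range −2.16 to −0.62), beside −0.44 over all tested genes, and 0 were called. With UMPS_BKO replicates 2, 3 and 4 excluded it was −0.12, beside −0.23 over all tested genes, and 7 of 10 differences were below 0.

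Class II levels were then read against genes that mark B cells in general, as a description. The mean log2(TPM + 1) of the 10 members exceeded that of the 16 pan-B genes by 1.70, 1.89, 1.95 and 1.90 in control replicates 1 to 4. In UMPS_BKO replicates 1 to 4 the excess was 1.89, 0.60, 0.86 and 0.09. The last 3 were below all controls, and the group means differed by −0.999.

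The size of this gap rested on the B cell genes chosen. Of the 16 pan-B genes, 14 had differences below 0 and 2 above, with a median of −1.76. Cd79a and Cd79b, the signalling chains of the B cell receptor, had differences of −2.75 ± 0.90 and −2.56 ± 0.89, close to those of H2-Aa and H2-Eb1. Pax5 and Ebf1, transcription factors of B cell identity, had differences of 0.30 ± 0.55 and 0.08 ± 0.58. In UMPS_BKO replicate 2 Pax5 was at 788 TPM, above the controls (242 to 428 TPM), while Cd79a was at 150.0 TPM, below them (1029 to 3181 TPM).

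With Pax5, Ebf1, Bank1 and Ralgps2 left out of the 16, a choice made after the values were seen, the class II excess was 1.41 to 1.64 log2 units in the controls. It was 1.55, 1.03, 0.99 and 0.43 in UMPS_BKO replicates 1 to 4, so UMPS_BKO replicates 2, 3 and 4 were again below the controls and replicate 1 lay among them. The group means differed by −0.50, against −0.999 with all 16 genes. The genes left out had the highest differences of the 16 (0.30, 0.08, −0.19 and −0.59), so the gap had to narrow. H2-Aa per TPM of Cd79a averaged 1.46 ± 0.157 over the controls and 1.66 ± 0.496 over UMPS_BKO (SD, n = 4 each), with overlapping groups. Cd74 per TPM of Cd79a was 5.85 ± 1.47 and 4.56 ± 1.71, also overlapping.

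**Figure D4:**
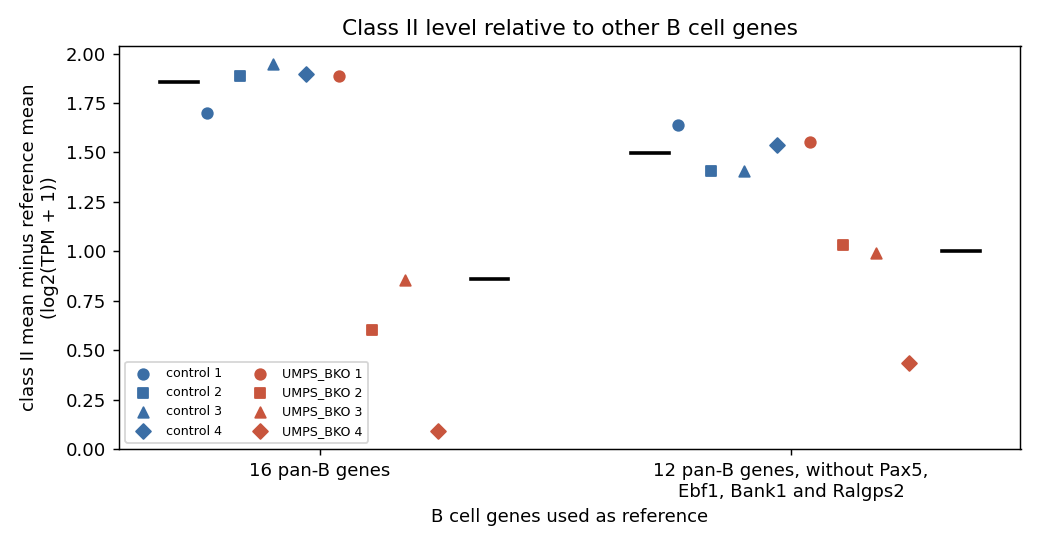
Mean log2(TPM + 1) of the 10 class II genes minus that of a set of B cell genes (vertical), for each library and 2 reference sets (horizontal); black lines are group means, controls left and UMPS_BKO right of the points. The gap between group means is −0.999 with all 16 pan-B genes and −0.50 without Pax5, Ebf1, Bank1 and Ralgps2. These genes have the highest differences of the 16, so leaving them out had to narrow the gap.

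The genes that switch class II on were followed next. Of 8 tested, 0 were called in limma, 7 had differences below 0, and their median was −1.04 beside −0.90 over all tested genes. Ciita, the master coactivator, read 11.4, 73.8, 168 and 44.1 TPM across the controls, against 40.5, 10.6, 11.2 and 0.963 TPM across UMPS_BKO. UMPS_BKO replicates 2, 3 and 4 lay below all controls, the first pair of them only just, and the log2 difference was −2.32 ± 0.98 (limma, adjusted p = 0.283). Ciita was lowest among the controls in replicate 1 and highest in replicate 3, as were 9 and 10 of the 10 members, respectively. The scaling factors by the median of ratios, from 6048 genes, were 0.787, 1.90, 2.15 and 1.44 in control replicates 1 to 4. They too were lowest in replicate 1 and highest in replicate 3, so this was not particular to Ciita and class II. The share of all tested genes with these extremes was not counted.

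The DNA-binding partners were spread around the median gene. The NF-Y subunit genes Nfyc and Nfyb, which bind the Y box, had log2 differences of −1.32 ± 0.66 and −0.89 ± 0.61 (limma, adjusted p = 0.295 and 0.386). Nfyb read 12.1, 22.4, 12.1 and 20.6 TPM across the controls, against 15.8, 4.86, 7.62 and 7.74 TPM across UMPS_BKO. Rfxap, a subunit of the RFX complex that binds the X box, was the gene of this list with a difference above 0, at 0.83 ± 0.79 (adjusted p = 0.511).

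Genes of antigen processing were tested in the same way, and 0 of 9 were called in limma, with a median of −1.32. Ctss encodes cathepsin S, the protease that trims the invariant chain in B cells, and it read 400.1, 919, 1311 and 965 TPM across the controls, against 804, 95.5, 161 and 29.5 TPM across UMPS_BKO, a log2 difference of −2.56 ± 0.86 (limma, adjusted p = 0.283). Ifi30, the thiol reductase that unfolds antigens, read 341, 847, 918 and 684 TPM across the controls, against 614, 28.5, 51.7 and 26.6 TPM across UMPS_BKO (−3.19 ± 0.89, adjusted p = 0.277). Ctsz, a carboxypeptidase of lysosomes, had a difference of −2.55 ± 0.77 (adjusted p = 0.283). These 3 genes are the most abundant of the list, and for each of them UMPS_BKO replicates 2, 3 and 4 were below all controls.

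Among genes of class II turnover and co-stimulation, 6 of 8 listed passed the filter and 0 were called in limma, with a median of −1.59. Cd83, whose protein keeps class II at the surface, read 95.8 to 176 TPM over the controls, against 120.1, 44.0, 42.9 and 0 TPM across UMPS_BKO, a log2 difference of −2.71 ± 1.17 (limma, adjusted p = 0.283). Icosl, the ligand of the T cell receptor ICOS, had a difference of −2.15 ± 0.90 (adjusted p = 0.283), and Cd40, the receptor for T cell help, of −1.18 ± 0.73 (adjusted p = 0.359). Over the 3 lists, 0 of 23 tested genes were called and 8 had an unadjusted p under 0.05, beside 16.4% of all tested genes that were lower at that level. Without UMPS_BKO replicate 1, Ifi30, Ctsz and Ctss were called lower (limma, adjusted p = 0.00494, 0.0297 and 0.0358), where 2.16% of all tested genes were. With array weights 7 of the 23 were called lower, where 17.8% of all tested genes were. They were Ifi30, Ctsz and Ctss (0.0249, 0.0283 and 0.0324), Ctsh, another lysosomal protease (0.0313), Ciita (0.0378), March1, a ubiquitin ligase of class II (0.0387), and Icosl (0.0467). The adjusted p of Ifi30, Ctsz and Ctss in the remaining alternatives ranged from 0.134 to 1.00.

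**Figure D5:**
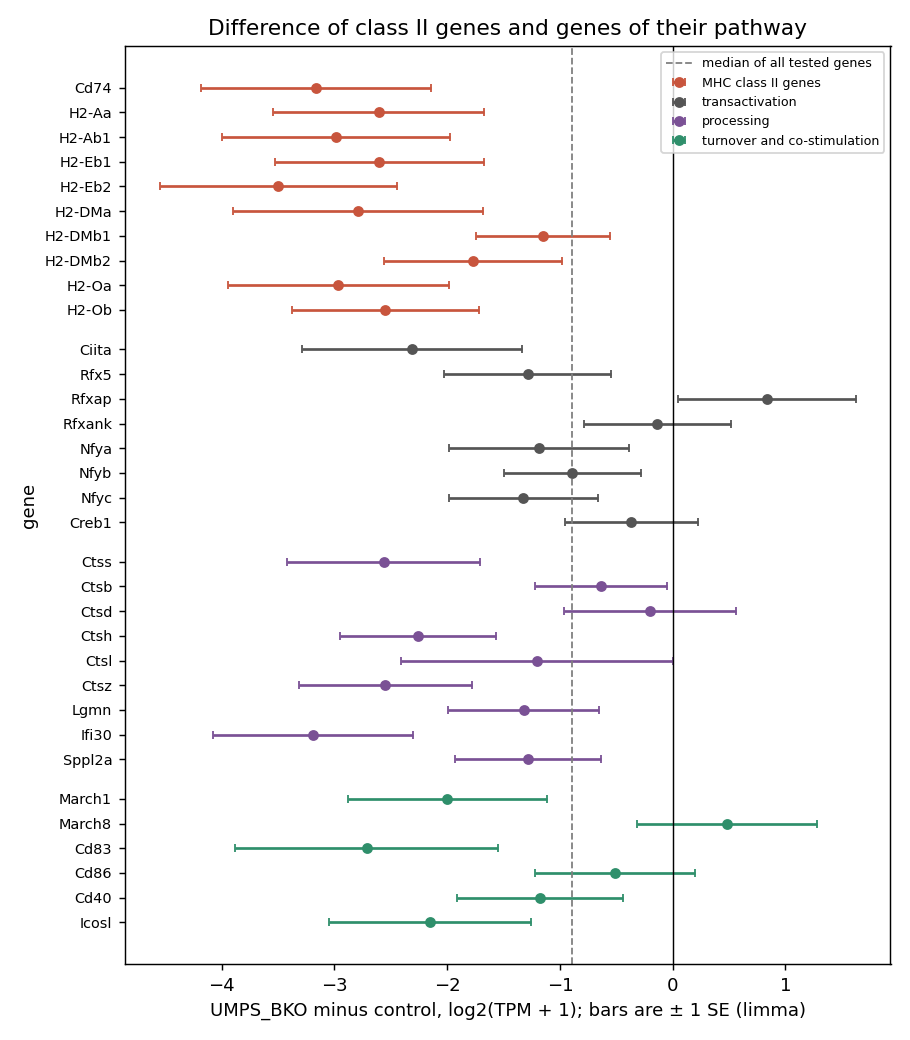
Log2 difference (UMPS_BKO minus control, log2(TPM + 1), horizontal; bars ± 1 SE from limma) of the 10 class II genes and of the 23 tested genes of the 3 pathway lists (vertical). The dashed line is the median of all tested genes (−0.90); 9 class II genes, Ciita, Ctss, Ifi30, Ctsz, Cd83 and Icosl have whole error bars left of it, as do Ctsh and March1, and Rfxap and March8 lie right of 0.

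Ctss, Cd79b, Cxcr5 and Sh3bgrl3 were among the 5 genes whose profile over the 8 libraries was most like that of the family, leaving out antibody segments, pseudogenes and provisional symbols. Likeness was the root-mean-square difference of log2(TPM + 1), each gene centred on its own mean, from the mean profile of the 10 members. It was 0.15 for Ctss, 0.20 for Cd79b, 0.22 for Cxcr5 and 0.23 for Sh3bgrl3. The members themselves ranged from 0.10 for H2-Aa and 0.14 for H2-Eb1 to 0.58 for H2-Eb2 and 1.30 for H2-DMb1. Ctss thus lay nearer to the mean profile than 8 of the 10 members did. All these points share the same libraries and their unequal composition.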

How the data were processed

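Poly(A)-enriched RNA of 8 samples (4 control, 4 UMPS_BKO) was sequenced. The authors deposited 1 table of TPM, and the submitters' processing notes list the build GRCm38 and, as tools, STAR 2.5.2b, Subread 1.5.2 with featureCounts, and bcl2fastq 2.20. No source used here gives how TPM was computed, the annotation or the strand setting. Columns were matched by library name and groups by sample title. Each column sums to 1000000, so a library rich in ribosomal RNA-like features has lower values for other genes.

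Differences were fitted in limma 3.58.1 (R 4.3.3) on log2(TPM + 1) over 10708 genes, with eBayes trend, no covariate and Benjamini-Hochberg adjustment at 0.05; this scale understates the change of low genes. Tested on simulated data for this comparison (10708 genes, independent errors, 50 genes changed at each size), the fit called 6%, 62%, 94% and 100% of those shifted by 2, 4, 6 and 8 log2 units, and 7.09% of its calls were false. The simulation gave both groups the same spread and no shift common to all genes. In the data the SD of Cd74 was 1.12 log2 units in the controls and 2.28 in UMPS_BKO. The median difference over all tested genes was −0.90, so these rates may not hold here. Reads were recovered from TPM steps and GENCODE M21 exon lengths. Between 89.8% and 91.7% of values under 30 reads were whole within 0.05 reads, and no count model was run. Members, lists, settings and the rule for named genes (Umps, Fcgr2b, Fcer2a, the 3 most abundant genes of each pathway list, Ciita, Ctss, Ifi30, H2-Ea-ps, the 5 most alike genes) were chosen with earlier results of these data known. Rfxap, March8, Ctsh, March1, Cd79a, Cd79b, Pax5 and Ebf1 were picked with their values known, as were the other B cell reference and the exclusion of control replicate 3 beside control replicate 2 and UMPS_BKO replicate 4. 1 gene named by the rule is not reported here. Python 3.11.15 was used otherwise.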

Additional observations from a re-analysis of the deposited data

Results flagged for a closer look

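A library was marked where its gap to the nearest of the 4 in its group exceeded Dixon's 95% critical share of the group's range, which chance gives in about 5% of groups. Of 38 groups of values examined, 8 were marked. The groups reuse the same 8 libraries and are not independent, so this count is not read against the 5%. In UMPS_BKO, replicate 1 stood apart as the highest library for Cd74 (10511 TPM), H2-Eb2 (112 TPM), Ctss (804 TPM), Ifi30 (614 TPM) and Ctsz (362 TPM). H2-Ea-ps was read in 1 library of each group, at 14.3 TPM in control replicate 4 and 18.9 TPM in UMPS_BKO replicate 3, and was listed at 0 elsewhere. With every other library of a group at 0 the rule marks any value above 0, so these marks say nothing about its size. Control replicate 1 stood apart as the lowest control for the mean of H2-O relative to H2-DM (−0.70).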

How the results depend on the processing

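All 10 class II differences kept their direction in every setting that left out 1 library and in every scaling, filter, pseudocount and weighting tried. With the pan-B mean as a covariate the median of the 10 members was −0.29, beside −0.37 over all tested genes. H2-DMa and H2-DMb2 then turned to 0.30 and 0.22. With UMPS_BKO replicates 2, 3 and 4 excluded, H2-Aa, H2-DMa and H2-DMb2 turned to 0.012, 0.061 and 0.19. That last fit keeps 1 UMPS_BKO sample, which is assumed to vary like the controls. Members were called in 2 of 22 alternative settings: 7 without UMPS_BKO replicate 1, and 8 with array weights, where 17.8% of tested genes were called lower.

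The class II mean relative to the pan-B mean (−0.999) ranged from −1.34 to −0.74 when 1 library was left out, and turned to 0.029 with UMPS_BKO replicates 2, 3 and 4 excluded. It was −0.50 without Pax5, Ebf1, Bank1 and Ralgps2 in the pan-B list. Those genes had the highest differences of the list, so leaving them out had to narrow the gap. H2-O relative to H2-DM (−0.85) ranged from −1.10 to −0.47 when 1 library was left out and was −0.10 with UMPS_BKO replicates 2, 3 and 4 excluded. The cause of these shifts was not tested.

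Over all genes, 4 were called higher and 10 lower. Leaving out 1 library gave 0 to 17 higher and 1 to 231 lower. Array weights gave 84 and 1906, a pseudocount of 0.1 gave 1 and 7, a pseudocount of 5 gave 5 and 5, no filter 0 and 1, a mean TPM of at least 5 gave 4 and 6, median of ratios scaling 4 and 6, quantile normalization 4 and 5, leaving out ribosomal RNA-like features and mitochondrial ones 1 and 5, and the pan-B covariate 0 and 1. Excluding control replicate 2 and UMPS_BKO replicate 4, with the most hepatocyte and muscle transcripts, gave 3 and 1, and excluding control replicate 3 as well gave 0 and 0 (271 genes at an unadjusted p under 0.05). Likewise, excluding UMPS_BKO replicates 2, 3 and 4 gave 0 and 0 (102 genes at an unadjusted p under 0.05). The replicate number as a block gave 5 higher and 23 lower with 0 of 10 members called. Same-numbered samples did not deviate together (correlations −0.35 to −0.03), and 0 of 4 controls correlated best with their own number, so the numbers are not taken as pairs. H2-Eb2 in UMPS_BKO replicate 4, at 31 reads, is the value that depth limits most among the members.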
